A study of Mus musculus with 18 samples.

Results

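The 10 genes described here are ones that the tumour suppressor p53 is known to activate directly, followed through 3 mouse tissues after treatment with RECTAS, a small molecule named as a rectifier of aberrant splicing. The genes were Cdkn1a, Mdm2, Ccng1, Bax, Phlda3, Trp53inp1, Fas, Bbc3, Zmat3 and Aen, chosen by symbol from the 55401 genes of each expression table, and each of the 10 symbols was found once. The study was set up to look for splicing changes in treated mice, and the expression tables were used here to ask whether the p53 targets moved as a set or Cdkn1a moved without the others. C57BL/6N mice 7 weeks of age received RECTAS by mouth at 100 mg/kg in 0.5% carboxymethyl cellulose (CMC), or 0.5% CMC without drug (vehicle), with 4 h between the doses. Colon, lung and liver were taken at 8 h from the start, giving 6 groups of 3 libraries and 18 libraries in all. The labels do not say which animal gave which library, so every p-value below measures the spread between these libraries, which may be technical.

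p53 is a transcription factor held at a low level by MDM2, the ubiquitin ligase that marks it for degradation. DNA damage and other stress stabilise it, and it then binds paired half-sites near its target genes and raises genes of cell cycle arrest, cell death and its own feedback. Several of these genes are also controlled by other factors, and Cdkn1a in particular is known to respond to hormone receptors and growth signals without p53.

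The targets differ in what they do. Cdkn1a (ENSMUSG00000023067, chr17:29090976-29100727, plus strand) encodes p21, the inhibitor of cyclin-dependent kinases through which p53 arrests the cell cycle. Ccng1 (ENSMUSG00000020326, chr11:40748552-40755311, minus strand) encodes cyclin G1, a partner of a phosphatase that acts on MDM2. Mdm2 (ENSMUSG00000020184, chr10:117688875-117710758, minus strand) closes the negative feedback loop on p53.

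Bax (ENSMUSG00000003873, chr7:45461697-45466898, minus strand) forms pores in the outer mitochondrial membrane, and Bbc3 (ENSMUSG00000002083, chr7:16308393-16318205, plus strand) encodes PUMA, which frees Bax from its inhibitors. Fas (ENSMUSG00000024778, chr19:34290666-34327772, plus strand) encodes the death receptor that binds Fas ligand. Phlda3 (ENSMUSG00000041801, chr1:135766119-135769136, plus strand) encodes a repressor of AKT signalling. Trp53inp1 (ENSMUSG00000028211, chr4:11156431-11174379, plus strand) encodes a stress protein linked to autophagy and cell death. Zmat3 (ENSMUSG00000027663, chr3:32334792-32366014, minus strand) encodes an RNA-binding zinc finger protein, and Aen (ENSMUSG00000030609, chr7:78895854-78911209, plus strand) a nuclease of apoptotic cells. All positions are on GRCm38.

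RefSeq promoter windows of 300 bases (GRCm38.p6, 250 before to 50 after a gene's start) were matched for 8 of the 10 genes, 12 windows in all; Trp53inp1 and Zmat3 had none. They were searched for the p53 half-site, a motif of 10 bases that reads the same on both strands, because a pair of such half-sites is what p53 binds. Cdkn1a stood out in having 2 exact half-sites in 1 of its windows. Their first bases lay 73 and 51 bases before the start that this window covers (positions -73 and -51). The other Cdkn1a window, chr17:29093519-29093818, covers another start and held 0 exact half-sites. The half-site at -51 was followed directly by another with 1 letter off. That stretch, chr17:29090918-29090957 on the plus strand, is printed 5′ to 3′ with both half-sites in capitals:
Cdkn1a: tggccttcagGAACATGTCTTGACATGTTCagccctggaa

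The other Cdkn1a half-site and those of Mdm2, Ccng1, Bax and Aen are shown for comparison, 5′ to 3′ on each gene's strand, with the exact half-site in capitals. The stretches lie at chr17:29090896-29090925, chr10:117710925-117710954, chr11:40755452-40755481, chr7:45467080-45467109 and chr7:78895927-78895956, in this order:
Cdkn1a: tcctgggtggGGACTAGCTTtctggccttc
Mdm2: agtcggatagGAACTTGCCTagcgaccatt
Ccng1: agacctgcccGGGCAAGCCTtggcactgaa
Bax: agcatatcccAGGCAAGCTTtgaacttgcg
Aen: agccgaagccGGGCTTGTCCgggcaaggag

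Of 32851 promoter windows, 8.36% held at least 1 exact half-site. A pair of exact half-sites no more than 13 bases apart, as in 1 Cdkn1a window, was in 0.0731%. Pairs with at most 1 letter off in each half-site, like the adjacent Cdkn1a pair printed above, were in 1.39% of windows. The windows of Phlda3, Fas and Bbc3 held no exact half-site, which says only that these letters are not in these windows. The glucocorticoid response element, taken as AGAACA and TGTTCT with 3 bases between them, was found in 0 of the members' windows and in 0.00913% of all windows. Either arm on its own, on either strand, were likewise found in 0 of the members' windows, against 19.0% of all windows. A match is a description of sequence and not a measured binding site.

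Levels were gene-level TPM, a unit of transcript abundance scaled by transcript length and to the same total in each library, so the read depth behind a value is unknown. Between 19836 and 25227 genes were above 0 in a library. Each tissue was checked against marker genes, and its own markers were far above those of the other tissues: the summed TPM of 5 colon epithelium markers was at least 16687 in colon, that of 3 alveolar markers at least 34110 in lung, and that of 4 hepatocyte markers at least 83569 in liver. In lung the hepatocyte markers summed to between 25.6 and 1243 TPM in vehicle and between 9.58 and 501 TPM in RECTAS libraries. The alveolar sum in lung was 34110 to 37102 TPM in vehicle and 38069 to 42149 TPM in RECTAS libraries, which do not overlap. Of its 3 markers 0 were at 0. Ager overlapped, at no more than 2357 TPM in vehicle and no less than 2332 TPM in RECTAS libraries. Sftpc was only just apart (31807 and 31816 TPM). Of all lung genes tested, 16.1% had all RECTAS libraries above all vehicle libraries. The sum of 2 macrophage markers in colon was also separate, at 4.01 to 4.34 TPM in vehicle and 3.11 to 3.64 TPM in RECTAS libraries. Of these markers Cd68 was separate, while Adgre1 overlapped at 0.88 to 1.24 and 0.37 to 1.24 TPM. What part either sum has in the results below was not tested. These are whole tissues, in which fewer cells of a type and less RNA per cell cannot be told apart.

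In vehicle libraries the targets stood at very different levels in the 3 tissues, and Cdkn1a differed most. Cdkn1a was at 183 ± 26.8 TPM in colon, 33.9 ± 4.19 TPM in lung and 1.88 ± 0.236 TPM in liver (mean ± SD, n = 3). The colon mean was 97.0-fold the liver mean and 5.38-fold the lung mean, and each difference passed limma's test in a fit of all 18 libraries with Benjamini-Hochberg adjustment (liver minus colon -5.99 on the log2(TPM + 1) scale, adjusted p = 2.58e-15; lung minus colon -2.39, adjusted p = 3.24e-10). Differences between tissues are common, with 83.3% of 10753 genes passing for liver against colon, 73.7% for lung against colon and 89.3% for lung against liver.

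Phlda3 had the next widest range and another order, at 33.9 ± 0.718 TPM in lung, 5.76 ± 1.39 TPM in colon and 0.937 ± 0.354 TPM in liver, a 36.2-fold difference between the lung and liver means. Fas was at 46.6 ± 3.52 TPM in lung, 16.0 ± 1.63 TPM in liver and 13.3 ± 1.28 TPM in colon. Zmat3 was 4.16-fold higher in colon than in liver. Bax, with the highest lung level of the 10, was at 82.5 ± 4.77 TPM in lung and 27.6 ± 2.11 TPM in liver, and Aen at 17.9 ± 0.0699 TPM in lung and 10.4 ± 0.950 TPM in liver.

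Some neighbours in the order of tissues did not differ beyond their spread. Colon and lung were not separated for Ccng1 (42.7 and 40.3 TPM, adjusted p = 0.359), Zmat3 (4.77 and 4.36 TPM, adjusted p = 0.476) or Trp53inp1 (29.0 and 33.3 TPM, adjusted p = 0.287), all by limma. Colon and liver were not separated for Bbc3 (6.25 and 7.95 TPM, adjusted p = 0.704) or Aen (11.3 and 10.4 TPM, adjusted p = 0.247). After median ratio scaling limma called 4 of these 5: Ccng1 (-0.47, adjusted p = 0.00012) and Zmat3 (-0.40, adjusted p = 0.0025) were lower in lung than in colon, and Bbc3 (0.96, adjusted p = 0.0232) and Aen (0.75, adjusted p = 1.04e-07) higher in liver than in colon. Mdm2 was at 51.7 TPM in lung, 31.6 TPM in colon and 16.4 TPM in liver, and its colon to liver difference lost its call after median ratio scaling (-0.02 on the log2 scale, adjusted p = 0.891). The median of all genes was 0.70 lower in liver than in colon as deposited and 0.12 higher after that scaling, so the smaller tissue differences depend on how libraries are put on 1 scale, and those of Aen, Bbc3 and Trp53inp1 changed sign. The order of colon, lung and liver for Cdkn1a was the same under both scalings tried.

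**Figure D1:**
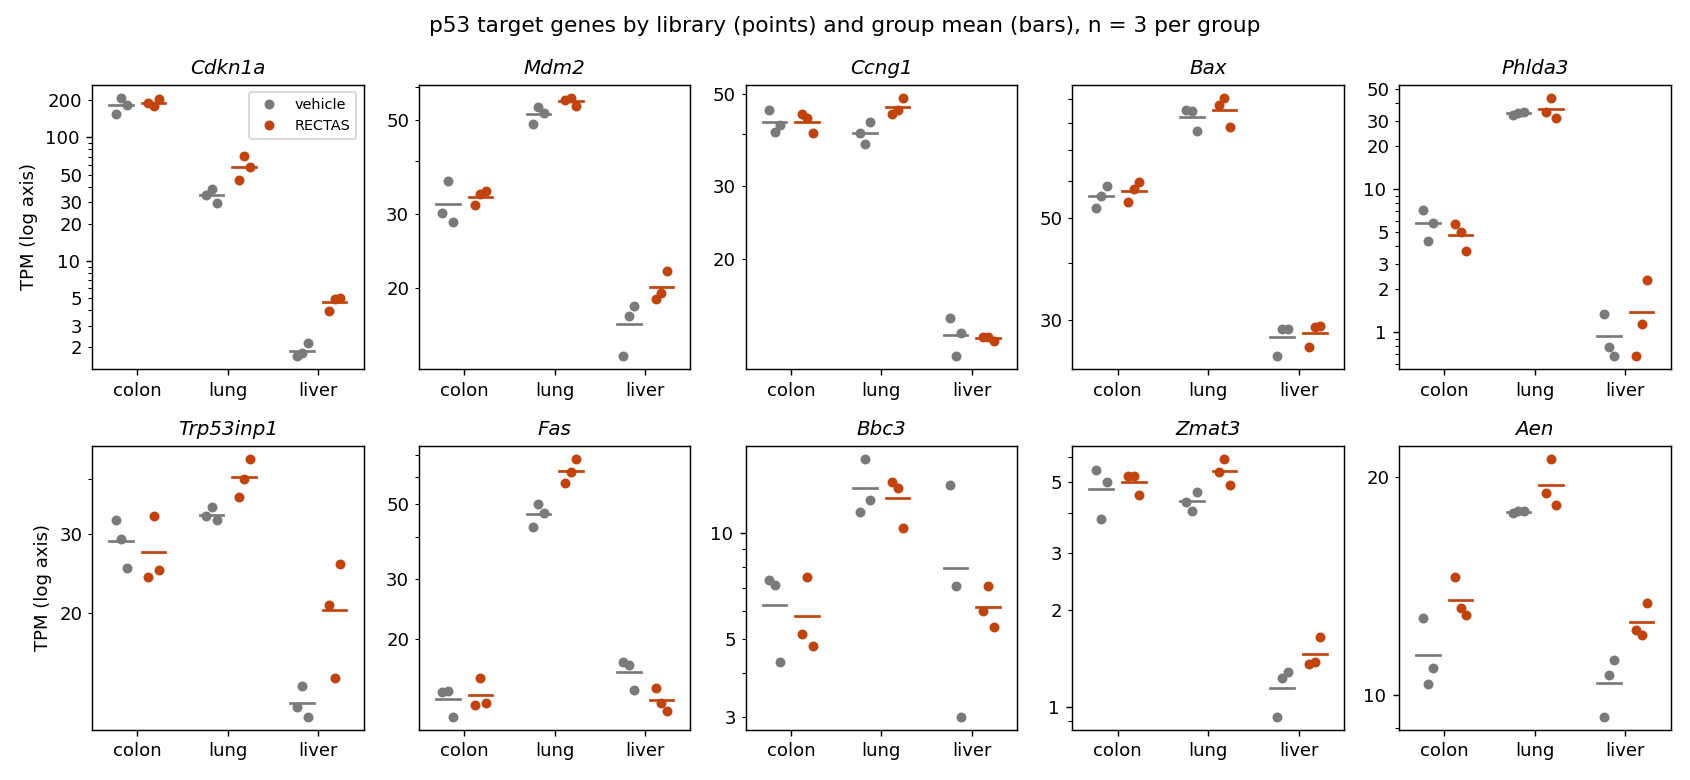
TPM of each p53 target gene in every library (points, log axis) with the mean of each group of 3 libraries (bars), vehicle in grey and RECTAS in orange, for colon, lung and liver. The RECTAS points of Cdkn1a lie above all vehicle points in lung and liver and among them in colon.

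In liver, Cdkn1a showed the widest separation of the 10 targets and Trp53inp1 the next, while Bax and Ccng1 stayed close to their vehicle level and Fas was lower. Cdkn1a was at 1.70, 1.80 and 2.15 TPM in the vehicle libraries and 3.96, 4.88 and 5.02 TPM after RECTAS. Every RECTAS library was thus above every vehicle library, and the means were 2.45-fold apart. The log2 difference was 0.96 with a standard error of 0.12 and a 95% interval from 0.67 to 1.25, the 10th smallest p of 11944 genes tested. It did not pass the threshold of 0.05 after adjustment over all genes (limma, adjusted p = 0.116).

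It crossed the threshold under 2 settings, which also called many more liver genes than the 2 of the main fit. With weights for each library the adjusted p by limma was 0.0211, and 62 genes were called. In a fit of all 18 libraries, adjusted over the 11944 genes tested in liver, it was 0.00529, and 134 genes were called. Over the 16 alternatives that gave a value the adjusted p of Cdkn1a lay between 0.00529 and 0.436, and 2 of them passed. A level near 2 TPM is low, and the log2(TPM + 1) scale understates the fold of such a gene.

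Trp53inp1 was at 12.2, 13.7 and 11.6 TPM in vehicle liver and at 20.8, 14.2 and 25.7 TPM in RECTAS liver. The lowest RECTAS library was just above the highest vehicle library, so the groups did not overlap, but the RECTAS libraries ranged more widely among themselves than the group means differed. The log2 difference was 0.62 with a standard error of 0.20 (limma, adjusted p = 0.357).

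Mdm2, the feedback ligase, was at 13.8, 17.2 and 18.2 TPM in vehicle liver and at 18.9, 19.4 and 21.9 TPM in RECTAS liver, a log2 difference of 0.28 (limma, adjusted p = 0.430). Aen was at 9.32, 10.7 and 11.2 TPM in vehicle and at 12.3, 12.1 and 13.4 TPM in RECTAS libraries, a log2 difference of 0.26 (limma, adjusted p = 0.393). Both sets of libraries were separate without overlap, by margins smaller than the spread within vehicle. Zmat3 was at 0.930, 1.23 and 1.28 TPM against 1.36, 1.38 and 1.65 TPM, also without overlap and with 5 of 6 libraries at 1 TPM or more.

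Fas went the other way in liver, at 17.2, 16.8 and 14.2 TPM in vehicle and 14.4, 12.97 and 12.3 TPM in RECTAS libraries. The highest RECTAS value lay just above the lowest vehicle value, so the groups overlapped, and the log2 difference was -0.26 (limma, adjusted p = 0.423). Bax was at 27.6 ± 2.11 TPM in vehicle and 28.2 ± 1.68 TPM in RECTAS libraries, and Ccng1 at 13.1 ± 1.36 and 12.9 ± 0.161 TPM. The 95% intervals of their log2 differences were -0.18 to 0.24 and -0.24 to 0.21, and the small Ccng1 difference changed sign after median ratio scaling.

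Bbc3 and Phlda3 could not be placed in liver. The vehicle libraries of Bbc3 ranged from 3 to 13.8 TPM and enclosed all RECTAS libraries, at 5.39 to 7.06 TPM. Phlda3 reached 1 TPM in 3 of 6 liver libraries and ranged from 0.680 to 1.34 TPM in vehicle and 0.680 to 2.33 TPM in RECTAS libraries.

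As a set, 5 of the 10 targets in liver (Cdkn1a, Trp53inp1, Mdm2, Aen and Zmat3) had all RECTAS libraries above all vehicle libraries, against 5.75% of all genes tested, and 0 had them all below, as 13% of all genes did. The 10 were chosen with earlier results of these data known, so such counts, here and in lung and colon, are descriptions only. The same 5 genes were found after each of 3 rescalings, under which the share of all genes ranged from 6.99 to 9.57%. Limma called 0 of the 10 after adjustment, where it called 0.0167% of all genes higher. Before adjustment 3 were higher at p under 0.05 (3.59% of all genes) and 1, Fas, was lower (8.03%). The median log2 difference of the 10 was 0.23 and that of all genes -0.04, with 40% of all genes above 0. The median of the 10 was 0.085 with a pseudocount of 5. A filter of 5 TPM removed Cdkn1a, Phlda3 and Zmat3, all higher in the main fit. The 7 still tested, 4 of them higher, had a median of 0.031. Of all liver genes at unadjusted p under 0.05, 30.9% were higher, and 53.4, 51.4 and 37.1% after median ratio, quantile and top-gene rescaling. Without Cdkn1a the median of the other 9 was 0.20, their range -0.26 to 0.62, and Cdkn1a lay 0.76 above that median.

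In lung, Cdkn1a was again the target furthest from vehicle and Fas was second, with smaller differences in most of the others. Cdkn1a was at 34.2, 38.0 and 29.7 TPM in vehicle and at 45.2, 70.3 and 57.3 TPM in RECTAS libraries. All RECTAS libraries were above all vehicle libraries, and the means were 1.70-fold apart. The log2 difference was 0.73 with a standard error of 0.17 and a 95% interval from 0.34 to 1.12, which did not pass after adjustment (limma, adjusted p = 0.267), nor under any of 17 alternatives (adjusted p from 0.0552 to 0.643).

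Fas, the death receptor, was at 43.0, 49.98 and 47.0 TPM in vehicle lung and at 57.8, 62.0 and 68.1 TPM in RECTAS lung. The groups were apart, with a log2 difference of 0.42 and a standard error of 0.085 (limma, adjusted p = 0.264). This is the opposite direction to liver.

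Trp53inp1 was at 33.0, 34.5 and 32.3 TPM in vehicle and 36.5, 40.1 and 44.5 TPM in RECTAS lung, a log2 difference of 0.27 (limma, adjusted p = 0.313). Ccng1 was at 40.3, 37.8 and 42.7 TPM against 44.6, 45.7 and 48.9 TPM, a log2 difference of 0.20 (limma, adjusted p = 0.337). Zmat3 was at 4.34, 4.08 and 4.67 TPM against 5.38, 5.92 and 4.89 TPM, a log2 difference of 0.25 (limma, adjusted p = 0.374). In each of the 3 genes the RECTAS libraries were all above the vehicle libraries, though after rescaling Ccng1 was no longer separate.

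Mdm2 was at 49.1, 53.8 and 52.1 TPM in vehicle and at 56.1, 56.6 and 54.1 TPM in RECTAS lung, and Aen at 17.83, 17.96 and 17.94 TPM against 19.0, 21.2 and 18.3 TPM. These were separate by small margins, with log2 differences of 0.10 and 0.12, and overlapped after rescaling. Bax, at 82.5 ± 4.77 and 85.4 ± 6.36 TPM, Phlda3, at 33.9 ± 0.718 and 36.6 ± 6.34 TPM, and Bbc3, at 13.4 ± 2.56 and 12.6 ± 1.98 TPM, overlapped, and the Bax difference turned negative after rescaling (-0.02 with median ratio scaling).

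Thus 7 of the 10 targets in lung had all RECTAS libraries above all vehicle libraries, beside 16.1% of all genes tested, and 0 had them all below, beside 3.18%. Lung as a whole leaned the same way: 65.4% of its 15699 genes tested had a log2 difference above 0, and of the genes at unadjusted p under 0.05, 85.1% were higher. That last share was 51.4% after median ratio scaling, 55.9% after quantile normalization and 54.4% after rescaling without mitochondrial and top 20 genes. Under each of these, 4 targets remained separate (Cdkn1a, Fas, Trp53inp1 and Zmat3), against 7.99, 8.78 and 8.27% of all genes.

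Limma called 0 of the 10 in lung, where 0.00637% of all genes were called higher. Before adjustment 5 were higher at p under 0.05, against 10.7% of all genes, and 0 were lower, against 1.88%. The median log2 difference of the 10 was 0.16 and that of all genes 0.06; after median ratio, quantile and top-gene rescaling the median of the 10 was 0.091, 0.081 and 0.098, and that of all genes -0.0049, 0.0071 and 0.00094. The median of the 9 other than Cdkn1a was 0.12, their range -0.08 to 0.42, and Cdkn1a lay 0.61 above it.

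In colon no target stood out as Cdkn1a did in lung and liver. Cdkn1a was at 156, 209 and 183 TPM in vehicle and at 189, 179 and 204 TPM in RECTAS libraries. The RECTAS values lay within the vehicle range, and the log2 difference was 0.07 with a 95% interval from -0.21 to 0.35 (limma, adjusted p = 0.99992). That interval does not reach the 0.73 estimated in lung or the 0.96 in liver.

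Aen was the 1 target of 10 whose colon groups were separate, against 3.43% of all genes higher and 2.01% lower, at 12.8, 10.3 and 10.9 TPM in vehicle and 14.5, 13.2 and 12.9 TPM in RECTAS libraries. The log2 difference was 0.24 (limma, adjusted p = 0.99992), and the groups overlapped when libraries were rescaled without mitochondrial and top 20 genes. Fas was at 14.0, 14.1 and 11.8 TPM against 12.8, 15.3 and 13 TPM, and Trp53inp1 at 32.4, 29.3 and 25.2 TPM against 24.0, 33.1 and 24.9 TPM, so the targets that stood next to Cdkn1a in lung and liver overlapped here.

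The other colon targets overlapped as well. Mdm2 was at 31.6 ± 3.75 and 32.9 ± 1.35 TPM, Ccng1 at 42.7 ± 2.63 and 42.8 ± 2.33 TPM, and Bax at 55.5 ± 3.15 and 57.2 ± 2.93 TPM in vehicle and RECTAS libraries. Phlda3, at 5.76 ± 1.39 and 4.81 ± 1.04 TPM, Bbc3, at 6.25 ± 1.69 and 5.83 ± 1.49 TPM, and Zmat3, at 4.77 ± 0.842 and 5.01 ± 0.390 TPM, were spread more widely than their means differed. Limma called 0 of the 10 and 0% of all 14282 genes in colon, under each of 17 alternatives 0 of the 10, and before adjustment 0 were at p under 0.05, against 1.62% of all genes (0.805% higher and 0.812% lower). Among all genes at that level 49.8% were higher, and 34.7 to 36.7% after the 3 rescalings.

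**Figure D2:**
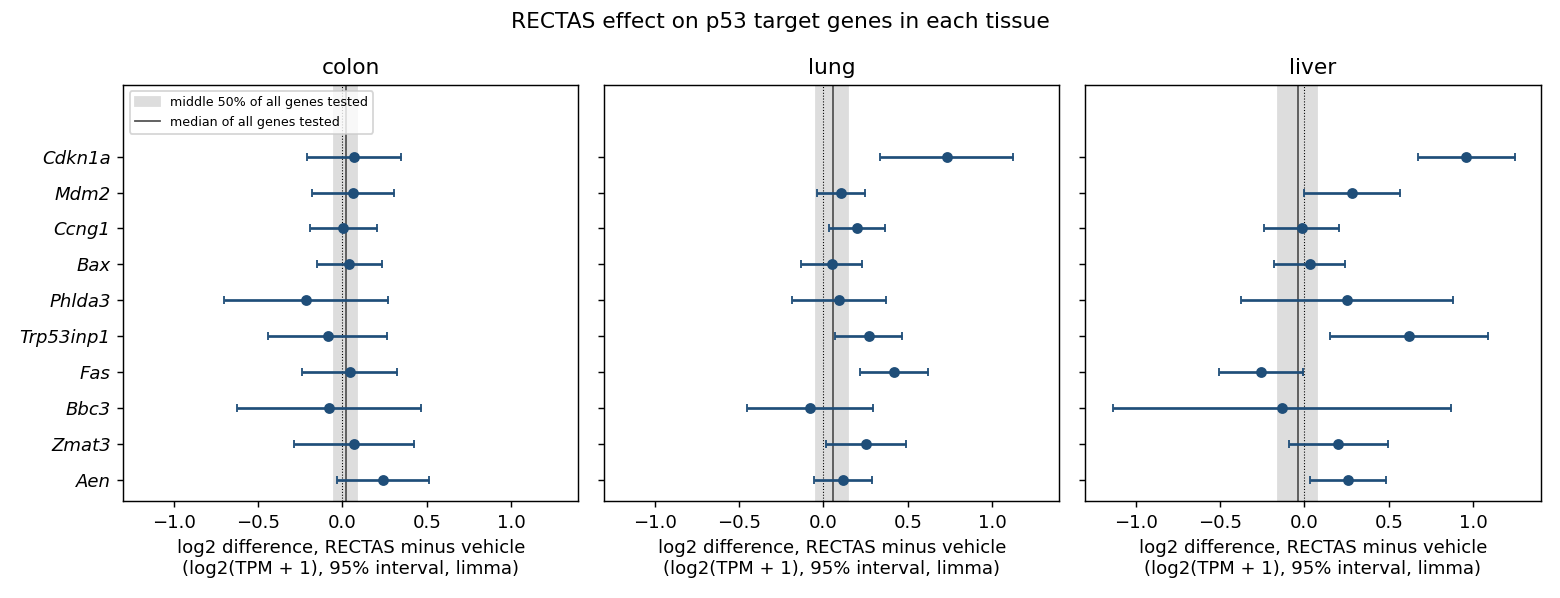
Log2 difference, RECTAS minus vehicle, of log2(TPM + 1) for each target gene in colon, lung and liver, with 95% intervals from limma; the grey band holds the middle 50% of all genes tested and the line within it is their median. Cdkn1a lies at 0.73 in lung and 0.96 in liver, to the right of the other 9 targets in both, and at 0.07 in colon.

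In the average effect over the 3 tissues, from a fit of all 18 libraries, Cdkn1a was the 1 target of 10 that passed. That fit takes the libraries as independent, and the labels do not say whether 1 animal gave all 3 tissues. The average log2 difference of Cdkn1a was 0.59 with a standard error of 0.084, the 7th smallest p of 10753 genes. Cdkn1a rose by this test (limma, adjusted p = 0.00494), as did 0.149% of all genes, while 0.102% fell. None of the other 9 targets passed: Aen was at 0.20 (adjusted p = 0.143), Trp53inp1 at 0.27 (adjusted p = 0.278), Mdm2 at 0.15 (adjusted p = 0.318) and Zmat3 at 0.17 (adjusted p = 0.331). Those 4 and Cdkn1a had p under 0.05 before adjustment, so 5 of 10 did, against 7.73% of all genes higher, and 0 were lower, against 3.85%. Fas averaged 0.07, Ccng1 0.06, Bax 0.04, Phlda3 0.04 and Bbc3 -0.10, with intervals that include 0.

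The Cdkn1a average held its call in 25 of 28 alternatives, 18 of which left out 1 library. It lost it without liver (limma, adjusted p = 0.339) and without lung (adjusted p = 0.0588). It also lost it when libraries with the same number were averaged over tissues first, leaving 3 values against 3 (adjusted p = 0.146). That last setting, which does not count the tissues as independent, called 0 of all genes.

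Whether the effect differed between tissues was tested as an interaction, and limma called 0 of the 10 targets in any of the 3 contrasts, and 0 of Cdkn1a, Fas and Trp53inp1 under the alternatives run. Fas came closest, with an effect 0.68 lower in liver than in lung (standard error 0.14, limma adjusted p = 0.127), where 0% of all genes were called and 10.7% had p under 0.05. The effect on Cdkn1a was 0.89 higher in liver than in colon (limma, adjusted p = 0.337) and 0.66 higher in lung than in colon (adjusted p = 0.9998). The liver to colon contrast called 0.0372% of all genes and 6.17% had p under 0.05 before adjustment, and the lung to colon contrast 0% and 1.92%. Between liver and lung the Cdkn1a effects differed by 0.23, with a 95% interval from -0.21 to 0.67. The effect on Trp53inp1 was 0.70 higher in liver than in colon (limma, adjusted p = 0.665).

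**Figure D3:**
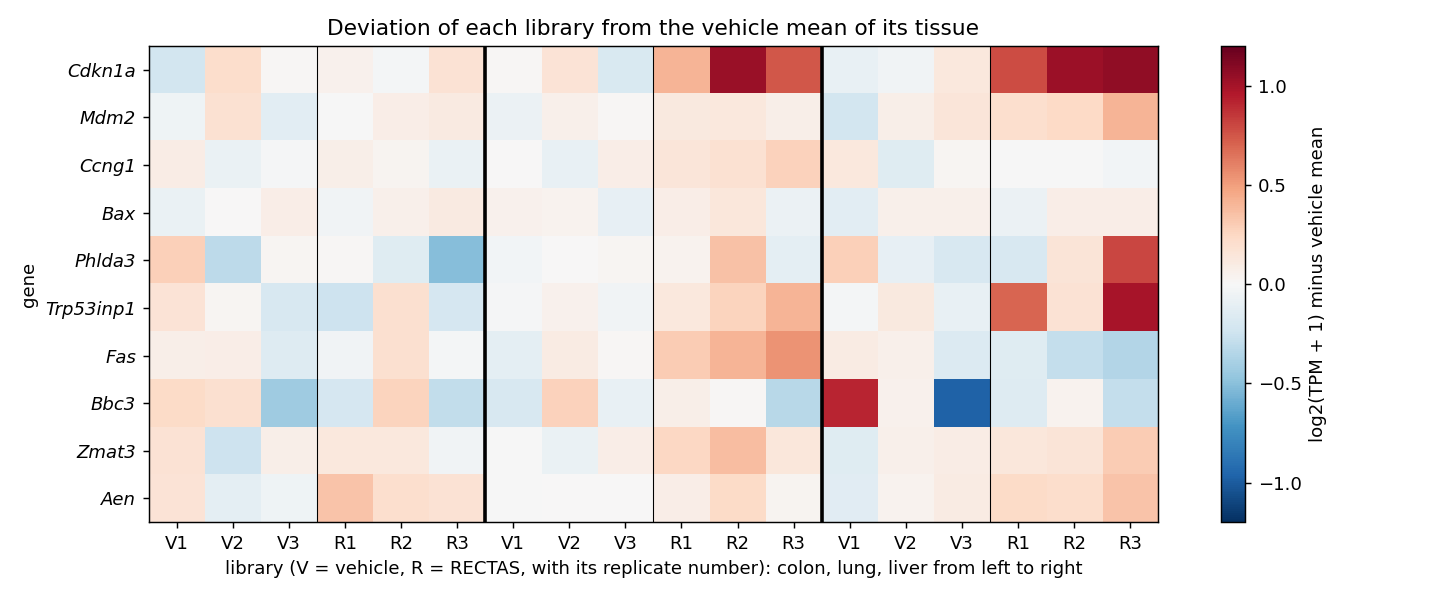
Deviation of each library (columns, V for vehicle and R for RECTAS, with replicate numbers) from the vehicle mean of its tissue for each target gene (rows), in log2(TPM + 1). Cdkn1a is positive in all RECTAS libraries of lung and liver, and by the most of the 10 genes in each of those 6; Trp53inp1 is strongly positive in 2 of the 3 RECTAS libraries of liver, and Fas is positive in lung and negative in liver.

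Across libraries the targets followed Cdkn1a to unequal degrees. After the mean of each tissue was removed, Pearson's r with Cdkn1a over the 18 libraries was 0.717 for Mdm2, 0.625 for Trp53inp1, 0.580 for Aen and 0.525 for Zmat3. It was 0.399 for Bax, 0.247 for Phlda3, 0.198 for Ccng1, 0.0443 for Fas and -0.206 for Bbc3. The highest r between any of the other targets was 0.804, for Zmat3 and Aen. These are descriptions over libraries that share tissue and treatment, and the treatment difference is part of each r.

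By the same measure over 10752 other genes, Mdm2 ranked 81 in nearness to Cdkn1a, Trp53inp1 269, Aen 403, Zmat3 631, Bax 1417 and the remaining targets lower. The 5 nearest were Arrdc2 (r = 0.877), an arrestin-domain gene, Psmd4 (r = 0.846), a ubiquitin receptor of the proteasome, Pptc7 (r = 0.840), a mitochondrial phosphatase, Ddit4 (r = 0.834), an inhibitor of mTORC1 signalling, and Angptl4 (r = 0.833), an inhibitor of lipoprotein lipase. Ddit4 was at 3.54 ± 0.962 TPM in vehicle and 22.0 ± 2.24 TPM in RECTAS liver, and at 23.1 ± 7.33 and 52.6 ± 10.8 TPM in lung. Arrdc2 was at 8.63 ± 0.692 and 28.8 ± 6.78 TPM in liver and at 16.7 ± 1.07 and 30.0 ± 5.60 TPM in lung. In colon Ddit4 was at 19.9 ± 3.69 and 25.3 ± 4.49 TPM and Arrdc2 at 16.2 ± 2.14 and 13.5 ± 1.60 TPM.

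The gene for p53 itself did not pass the test in any tissue. Trp53 was at 28.0 ± 3.43 and 28.3 ± 4.73 TPM in vehicle and RECTAS colon, 35.1 ± 3.26 and 38.0 ± 5.24 TPM in lung, and 16.3 ± 1.54 and 14.9 ± 0.917 TPM in liver. Of 18 listed p53 regulators and kinases in the files, with Trp53 among them, 15 were tested in colon, 17 in lung and 14 in liver, and limma found 0 at p under 0.05 before or after adjustment. The smallest p values belonged to Hipk2 in colon, a kinase of p53 (log2 difference 0.27, limma adjusted p = 0.99992), Usp7 in lung, which removes ubiquitin from p53 and MDM2 (0.10, adjusted p = 0.499), and Atm in liver, the kinase of the DNA damage response (-0.42, adjusted p = 0.482). p53 is controlled mainly at the protein level, which was not measured.

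At unadjusted p under 0.05 by limma, 10.7% of all genes were higher and 1.88% lower in lung. The shares were 3.59% and 8.03% in liver, and 0.805% and 0.812% in colon. They stand beside the counts of the lists below. A list of 43 further p53 targets was read in the same way, and its median lay near that of all genes in each tissue. In lung 39 were tested, 27 higher and 12 lower, with a median log2 difference of 0.04 against 0.06 for all genes, and limma called 0 after adjustment and 8 higher before it. Among these were Epha2, a receptor tyrosine kinase, at 25.1 ± 3.45 and 38.0 ± 2.25 TPM, Sesn2, a stress-responsive inhibitor of mTORC1, at 7.37 ± 1.13 and 11.7 ± 0.326 TPM, and Plk3, a stress kinase, at 6.31 ± 0.845 and 9.19 ± 0.459 TPM. In liver 30 were tested, 12 higher and 18 lower, with a median of -0.04, as for all genes; before adjustment 3 were higher and 3 lower, and 0 were called. Abhd4 was at 22.2 ± 0.741 and 27.2 ± 1.69 TPM, Triap1 at 13.6 ± 0.226 and 16.6 ± 1.02 TPM, and Trp53i11 at 4.38 ± 0.442 and 3.21 ± 0.580 TPM there. In colon 37 were tested with a median of 0.04 and 0 called, and 2 were higher before adjustment, the growth arrest genes Gadd45a (45.3 ± 7.75 and 67.5 ± 13.4 TPM) and Btg2 (60.1 ± 4.08 and 69.2 ± 2.42 TPM).

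Neighbours of the targets by family were compared in the same way. Of the other CDK inhibitors, Cdkn1c in lung was at 46.3 ± 5.09 and 54.9 ± 1.87 TPM (limma, adjusted p = 0.343), and it was the 1 of 6 tested there at p under 0.05; 0 of 5 in colon and 0 of 4 in liver were. Of 13 BCL2 family genes in lung, 3 were higher before adjustment, all with separate groups: the survival genes Mcl1 (145 ± 15.2 and 198 ± 16.4 TPM) and Bcl2l1 (61.8 ± 8.31 and 101 ± 17.8 TPM), and the death gene Pmaip1 (9.26 ± 1.15 and 12.97 ± 1.03 TPM), known as Noxa; 1, Bik, was lower. In liver Bmf, which acts like PUMA, was at 5.76 ± 1.02 and 3.12 ± 0.614 TPM and Bok, a relative of Bax, at 5.65 ± 0.442 and 3.89 ± 0.878 TPM, and these 2 of 11 were the ones at p under 0.05 before adjustment. Limma called 0 of either family after adjustment in any tissue.

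Cell cycle genes that p21 is known to repress, such as those of mitosis and DNA replication, were read beside Cdkn1a. In liver 16 of 27 reached the level needed for testing, 13 higher and 3 lower. Their median log2 difference was 0.19, beside -0.04 for all liver genes, of which 40% were above 0. In lung 26 of the cell cycle genes were tested with a median of -0.01, and in colon 27 with a median of -0.08. Limma found 0 of them at p under 0.05, before or after adjustment, in any tissue. The smallest p in liver was that of the mitotic kinase Aurka, at 1.17 ± 0.147 and 2.003 ± 0.698 TPM (limma, adjusted p = 0.444).

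Among noncoding RNAs linked to p53, Neat1, the scaffold of paraspeckles, was at 213 ± 58.9 TPM in vehicle and 115 ± 12.8 TPM in RECTAS liver with separate groups (limma, adjusted p = 0.232). In lung it was at 1266 ± 185 and 1234 ± 285 TPM, and in colon at 485 ± 86.8 and 452 ± 153 TPM. It is the 1 of 2 tested in liver at p under 0.05, and 0 of 3 were in either other tissue.

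The last list held 26 genes known to respond to the glucocorticoid receptor, which also acts on Cdkn1a; it was drawn up with earlier results of these libraries known and is no independent evidence. In liver 25 were tested, 20 higher and 5 lower, with a median log2 difference of 0.63. Before adjustment 12 were higher at p under 0.05 by limma (3.59% of all genes), and 1 was called (0.0167% of all genes). That gene, Ddit4, rose (log2 difference 2.36, limma adjusted p = 0.0130). In lung 22 of 25 were higher, with a median of 0.65 and 0 called. Of these 22, 18 were at p under 0.05 by limma before adjustment (10.7% of all genes). Map3k6, a stress kinase, was at 13.7 ± 2.42 and 26.9 ± 3.45 TPM and Nfkbia, the inhibitor of NF-kappaB, at 136 ± 20.2 and 229 ± 25.7 TPM there. In colon 24 were tested with a median of 0.08, 3 higher at that level and 0 called. Cebpd, with the smallest p of the list there, was at 3.69 ± 0.714 and 5.48 ± 0.754 TPM. Sgk1, a kinase of ion transport, was at 120 ± 48.0 and 239 ± 92.8 TPM. Over the 3 tissues together 23 of this list were tested, and limma called 4 higher by the averaged test, against 0.149% of all genes. These were Arrdc2, Cebpd, Ddit4 and Tsc22d3, and 0 were called lower, against 0.102%.

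A further group of stress genes shares members with the p53 targets and is set by FOXO factors and ATF4. In lung 16 were tested, 5 were higher at p under 0.05 before adjustment and 0 were called; besides Sesn2 they included Atf3, a stress transcription factor, at 5.90 ± 1.26 and 10.9 ± 2.57 TPM and Irs2, an adaptor of the insulin receptor, at 9.18 ± 0.749 and 13.3 ± 2.25 TPM. In liver 13 were tested with a median log2 difference of -0.22, 1 was higher (Sesn2) and 2 were lower before adjustment (Sesn3 and Gadd45a). In colon 1 of 14, Gadd45a, was higher before adjustment, and 0 were called in either tissue.

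**Figure D4:**
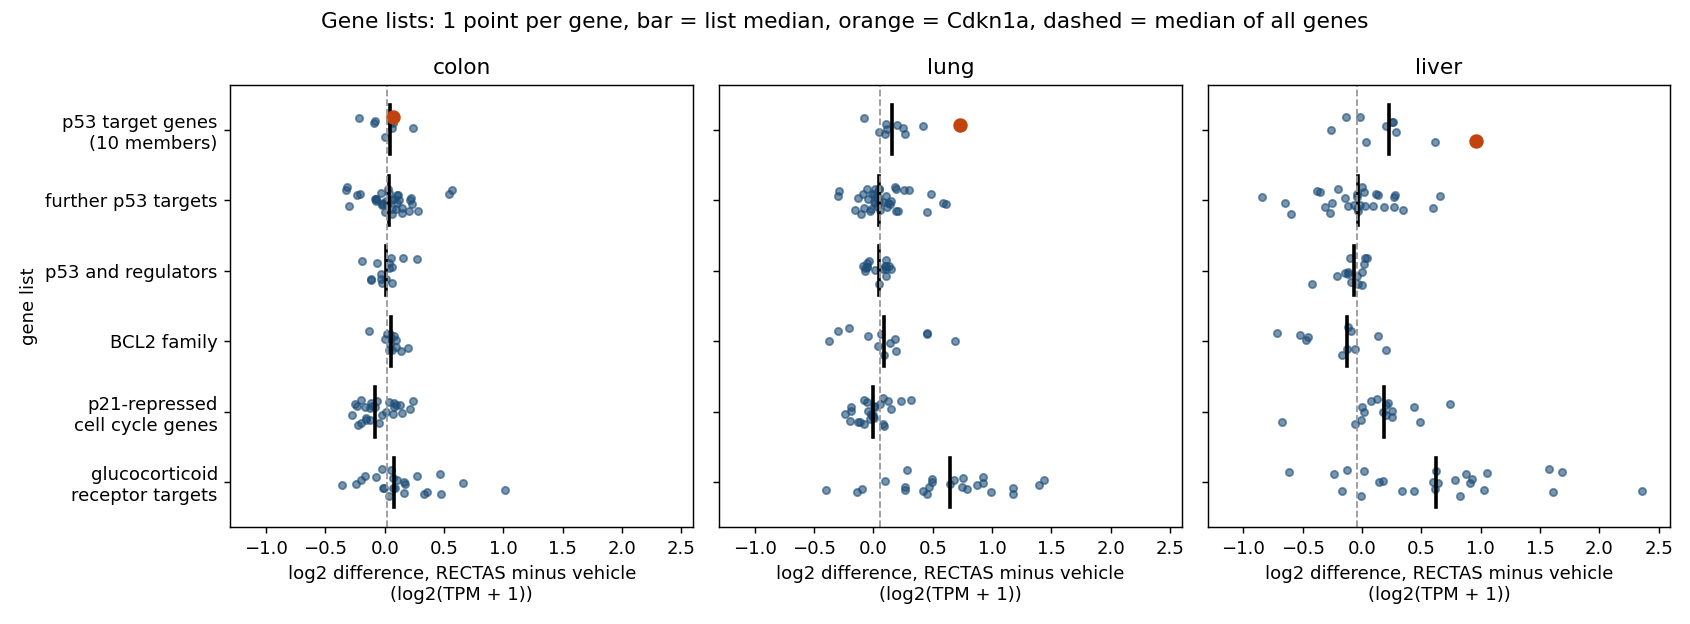
Log2 difference, RECTAS minus vehicle, for each tested gene of 6 lists (1 point per gene, list median as a bar) in colon, lung and liver, with Cdkn1a in orange and the median of all genes dashed. Cdkn1a lies beyond the other p53 targets of its list in lung and liver. The glucocorticoid receptor targets, a list drawn up with earlier results known, have medians of 0.65 in lung and 0.63 in liver.

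Reads of overlapping genes may affect 3 of the targets. A gene model on the opposite strand, AC167363.2 (chr17:29093416-29094461), lies within Cdkn1a, and how strand was handled in counting is not given in the sources used here. Bax overlaps Gm45808 on the same strand, which reached 4.74 TPM in liver and 0.490 TPM in lung at most, and Fas contains Gm27818, listed at 0 in all libraries.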

How the data were processed

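Polyadenylated RNA from TRIzol extracts was made into TruSeq stranded mRNA libraries, per the labels' protocols. The authors deposited 1 table of gene TPM per library. Per the submitters' processing notes, HISAT2 2.2.0, RSEM 1.3.0 and the build GRCm38 were used; which annotation release and which filters is not given in the sources used here. TPM keeps no read depth, so only the spread between libraries gives the precision.

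Groups came from the labels. Values were taken as log2(TPM + 1), which understates folds of low genes. A gene was tested in a tissue where 3 or more of its 6 libraries reached 1 TPM, and all 10 members passed. RECTAS was compared with vehicle per tissue with limma 3.58.1 (R 4.3.3, trended variance, two-sided, Benjamini-Hochberg adjustment over all genes, threshold 0.05). A fit of all 18 libraries, for genes passing in every tissue, gave the average effect, the interactions and the vehicle levels. It took the libraries as independent. The scripts were tested on simulated data. An exact permutation test of 3 against 3 cannot go below 0.1 and was not used.

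All 10 members were named, and from each other list the called genes and otherwise up to 3 with the smallest p. Members and lists were chosen with earlier results of these data known. Alternatives varied the pseudocount (0.1, 5), filter, scaling, variance model, libraries and replicate block; leaving out libraries from the 18-library fit, and repeating the overlap counts, were chosen after seeing the data. Gene positions are from the GRCm38 annotation and promoter windows from RefSeq (Python 3.11.15).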

Additional observations from a re-analysis of the deposited data

How the results depend on the processing

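The read depth is unknown, 3 libraries a group limit every test, and a target at 1 to 2 TPM in liver is measured coarsely. Across settings other than leaving out libraries, the number of genes called moved by over 1.5 times as follows, and the cause was not tested. In colon 0 genes became 2 with a pseudocount of 0.1 and 2 in a fit of all 18 libraries. In lung 1 became 4 with array weights and 37 in that fit. In liver 2 became 7 with the 5 TPM filter, 5 with median ratio scaling, 5 with quantile normalization, 8 when rescaled without mitochondrial and top 20 genes, 62 with array weights, 6 with robust variance and 134 in the fit of 18. Targets with separate groups went from 1 to 0 in colon when rescaled without the top genes, and from 7 to 4, 4 and 4 in lung under the 3 rescalings. Interactions went from 0 to 3 (pseudocount 5), 1 (no filter), 1 (5 TPM filter) and 4 (quantile normalization) for liver minus lung, from 4 to 1 (no filter) for liver minus colon, and from 0 to 2 (no filter) for lung minus colon. The average over tissues went from 27 genes to 0 with 3 means against 3, 2 without lung and 1 without liver.

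Same-numbered vehicle and RECTAS libraries had deviations correlated at 0.354, -0.294 and 0.0386 in colon, 0.409, -0.0654 and 0.317 in lung and 0.0281, -0.0137 and -0.0212 in liver. The labels do not say what the numbers mean. With so few libraries a group, these values cannot settle whether same-numbered libraries share more than a number. With the replicate block, liver called 0 genes, the liver minus colon interaction 1 and the average 49. Numbers were also compared across tissues, with r from -0.149 to 0.128.

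Small differences changed sign. Colon Ccng1 was at -0.012, -0.016 and -0.0225 under median ratio, quantile and top-gene rescaling, and lung Bax at -0.020, -0.039 and -0.013. With array weights colon Bax was at -0.0024, Trp53inp1 at 0.046 and Bbc3 at 0.17, lung Bbc3 at 0.011, and liver Ccng1 at 0.090 and Bax at -0.017; liver Ccng1 was at 0.024 with median ratio and 0.020 with quantile scaling. In the average, Ccng1 was at -0.0056 and Fas at -0.11 without lung, and Phlda3 at -0.060 without liver. Between vehicle tissues, median ratio and quantile scaling gave -0.19 and -0.078 for Trp53inp1 and 0.75 and 0.63 for Aen (lung and liver minus colon), and -0.33 and -0.34 for Bbc3 and -0.51 and -0.42 for Aen (lung minus liver).

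Leaving out 1 library at a time gave 0 to 1 called genes in colon, 1 to 2 in lung, 1 to 6 in liver, 0 to 4, 1 to 3 and 0 to 1 for the liver minus lung, liver minus colon and lung minus colon interactions, and 11 to 69 for the average. The lowest average count came without vehicle lung replicate 2 and the highest without vehicle liver replicate 3, and the 6 in liver without vehicle replicate 1. Targets with separate groups numbered 1 to 2 (colon), 7 to 9 (lung) and 5 to 6 (liver), while the share of all genes was 6.15 to 11.8%, 19.6 to 32.2% and 7.65 to 12.6%; the 9 in lung, without RECTAS replicate 3, came with the 32.2%. Differences that changed sign ranged in colon from -0.040 to 0.17 for Cdkn1a, -0.033 to 0.051 for Ccng1, -0.035 to 0.084 for Fas, -0.29 to 0.038 for Bbc3 and -0.054 to 0.16 for Zmat3; in lung from -0.035 to 0.20 for Phlda3 and -0.18 to 0.060 for Bbc3; in liver from -0.091 to 0.049 for Ccng1, -0.032 to 0.080 for Bax, -0.019 to 0.47 for Phlda3 and -0.62 to 0.32 for Bbc3; and in the average from -0.046 to 0.12 for Phlda3 and -0.26 to 0.055 for Bbc3.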
